A study of Mus musculus with 6 samples.

Results

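The 10 genes described here act at the sarcoplasmic reticulum, the calcium store of the muscle fibre. They are the small peptides Sln (sarcolipin), Pln (phospholamban) and Mrln (myoregulin), the calcium pumps Atp2a1 (SERCA1) and Atp2a2 (SERCA2), the calsequestrins Casq1 and Casq2, the luminal calcium-binding protein Hrc, the release channel Ryr1 and the triad protein Sypl2. They were chosen by gene symbol, for their roles around Sln, with the comparison of these same libraries already known, and Sln was then among the most reduced genes. Their values are therefore given as a description. Where the comparison over all genes also called some of them, the counts stand beside the share of all genes and are not a test. All 10 were found among the 41709 genes of the table, and all 10 were among the 11611 genes with an average of 1 TPM or more, on which the comparison was run. TPM is the share of a library's transcripts that a gene takes, corrected for transcript length.

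RNA-seq was done on 6 tibialis anterior (TA) muscles of male C57BL/6J mice, in 2 groups of 3. Each muscle was treated with hyaluronidase and electroporated with a pCMV6 plasmid that drives Flag-tagged mouse Lrpprc from a CMV promoter. The LrpprcWT group received the wild-type protein, and the LrpprcP27A group received a variant with alanine at proline 27, which cannot be hydroxylated there. Muscles were collected on day 14. Both groups thus carry electroporation and plasmid Lrpprc, and there is no untreated muscle among the libraries. The opposite leg of a mouse received the other plasmid, the age of these mice is not given in the sources used here, and whole muscle was extracted, so fibres that took up no plasmid are included. In whole muscle, fewer cells of a type and less RNA per cell cannot be told apart. The comparison asks whether the mRNA of the calcium store differs between muscles given the variant and muscles given the wild-type plasmid. Only the plasmid copy carries the change, and the mouse's own Lrpprc is present in both groups.

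A muscle fibre contracts when calcium leaves the sarcoplasmic reticulum through ryanodine receptors and relaxes when SERCA pumps return it. SERCA1 is the pump of fast fibres, and SERCA2 is the pump of slow fibres and of the heart. Sarcolipin, phospholamban and myoregulin are single-pass membrane peptides that bind SERCA and lower its activity. Calsequestrins hold calcium inside the store close to the release channels, with Casq1 the main form of fast fibres and Casq2 found in slow fibres and the heart. The TA of the mouse is a fast muscle, and in the mouse Sln is known mainly from atria, slow muscle and developing or regenerating muscle.

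The 3 peptides are encoded by very short reading frames, each within a single exon. Their coding sequences are shown because the means of Sln and Mrln, which act on the same pump, lay on opposite sides between the groups. Positions are those of GRCm39 with the GENCODE annotation, all on the plus strand, and capitals mark the start and stop codons.
Sln: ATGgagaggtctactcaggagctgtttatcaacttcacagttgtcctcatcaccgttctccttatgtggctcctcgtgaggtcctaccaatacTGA
Pln: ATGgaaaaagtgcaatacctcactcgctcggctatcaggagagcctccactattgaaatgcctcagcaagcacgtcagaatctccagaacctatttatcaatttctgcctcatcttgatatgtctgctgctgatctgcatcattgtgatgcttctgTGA
Mrln: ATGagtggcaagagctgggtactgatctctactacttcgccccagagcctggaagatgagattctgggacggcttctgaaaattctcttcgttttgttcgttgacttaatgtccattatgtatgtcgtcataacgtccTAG
The Sln frame covers 96 bases (chr9:53760757-53760852, exon 2 of 2) and encodes 31 residues. The Pln frame covers 159 bases (chr10:53219960-53220118, exon 2 of 2) and encodes 52 residues. The Mrln frame covers 141 bases (chr10:70055326-70055466, exon 3 of 3) and encodes 46 residues. Only 7.28% of the 1318-base Sln transcript and 3.87% of the 4105-base Pln transcript are coding, so most of each transcript lies outside the printed frame.

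The TPM of each library sum to 1000000, so levels can be set beside each other between genes, but the number of reads behind a value is unknown. Between 17774 and 19053 genes were above 0 in each library. The mitochondrial genome took 36.0 to 45.2% of the TPM with LrpprcWT and 44.2 to 46.1% with LrpprcP27A. Of the tested genes, 88.0% had a negative log2 fold change, and their median was -0.32 on log2(TPM + 1). Median-of-ratios scaling, which sets the typical gene to no change, moved this median to 0.04. With LrpprcP27A, limma with Benjamini-Hochberg adjustment called 2705 genes lower (23.3%) and 156 higher (1.34%) on the deposited scale, at a threshold of 0.05 on the adjusted p. After median-of-ratios scaling 675 (5.81%) were lower and 793 (6.83%) higher. Lrpprc itself, plasmid and mouse transcripts together, had 35.1, 37.0 and 75.2 TPM with LrpprcWT and 26.9, 29.7 and 26.0 TPM with LrpprcP27A. On this scale the groups did not overlap in Lrpprc level, with LrpprcWT replicate 3 far above the other libraries. The median-of-ratios factors were 1.27, 0.981 and 1.28 with LrpprcWT and 0.896, 0.831 and 0.887 with LrpprcP27A. Divided by these factors, the Lrpprc values of the groups overlapped. The part of Lrpprc level and of the variant was not tested. By qRT-PCR the paper reports similar Lrpprc mRNA with both plasmids.

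Among the SERCA regulators, Sln was far lower with LrpprcP27A, while Pln and Mrln were not. Sln had 81.0, 54.1 and 107.8 TPM in LrpprcWT replicates 1, 2 and 3, and 8.65, 1.70 and 1.62 TPM in the same-numbered LrpprcP27A replicates. Every LrpprcP27A library lay well below every LrpprcWT library, and LrpprcP27A replicate 1 stood above the other two. The means were 80.9 ± 26.9 TPM (SD, n = 3) and 3.99 ± 4.03 TPM (SD, n = 3), a level 20.3-fold lower. On log2(TPM + 1) the difference was -4.27 (standard error 0.47), the second lowest value of all tested genes. By mean level, Sln stood at rank 816 of 11611 with LrpprcWT and at rank 7195 with LrpprcP27A. Without LrpprcP27A replicate 1 the log2 difference was -4.89, and leaving out any other library gave between -4.53 and -3.95.

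Pln, the phospholamban known from heart and slow muscle, was near the lower limit of the tested genes in every library. It had 1.21, 1.35 and 0.791 TPM with LrpprcWT and 1.09, 1.18 and 1.35 TPM with LrpprcP27A. The groups overlapped, and the log2 difference of 0.07 (standard error 0.15) was smaller than its error and turned to -0.05 without LrpprcWT replicate 3. Pln also lies wholly inside Cep85l, a gene of the opposite strand with a mean of 9.14 TPM, and the library kit did not mark strand, so reads of the 2 genes cannot be told apart there.

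Mrln, the regulator named for its skeletal muscle expression, was on average higher with LrpprcP27A. It had 13.4, 24.2 and 20.9 TPM with LrpprcWT and 18.8, 36.8 and 32.1 TPM with LrpprcP27A. The groups overlapped through LrpprcP27A replicate 1, yet each LrpprcP27A muscle exceeded the same-numbered LrpprcWT muscle, by ratios of 1.40, 1.52 and 1.54. The means were 19.5 ± 5.51 and 29.2 ± 9.33 TPM (SD, n = 3 each), and the log2 difference was 0.55 (standard error 0.27), between 0.31 and 0.83 with any 1 library left out. With the replicate number in the fit the standard error was 0.12.

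**Figure D1:**
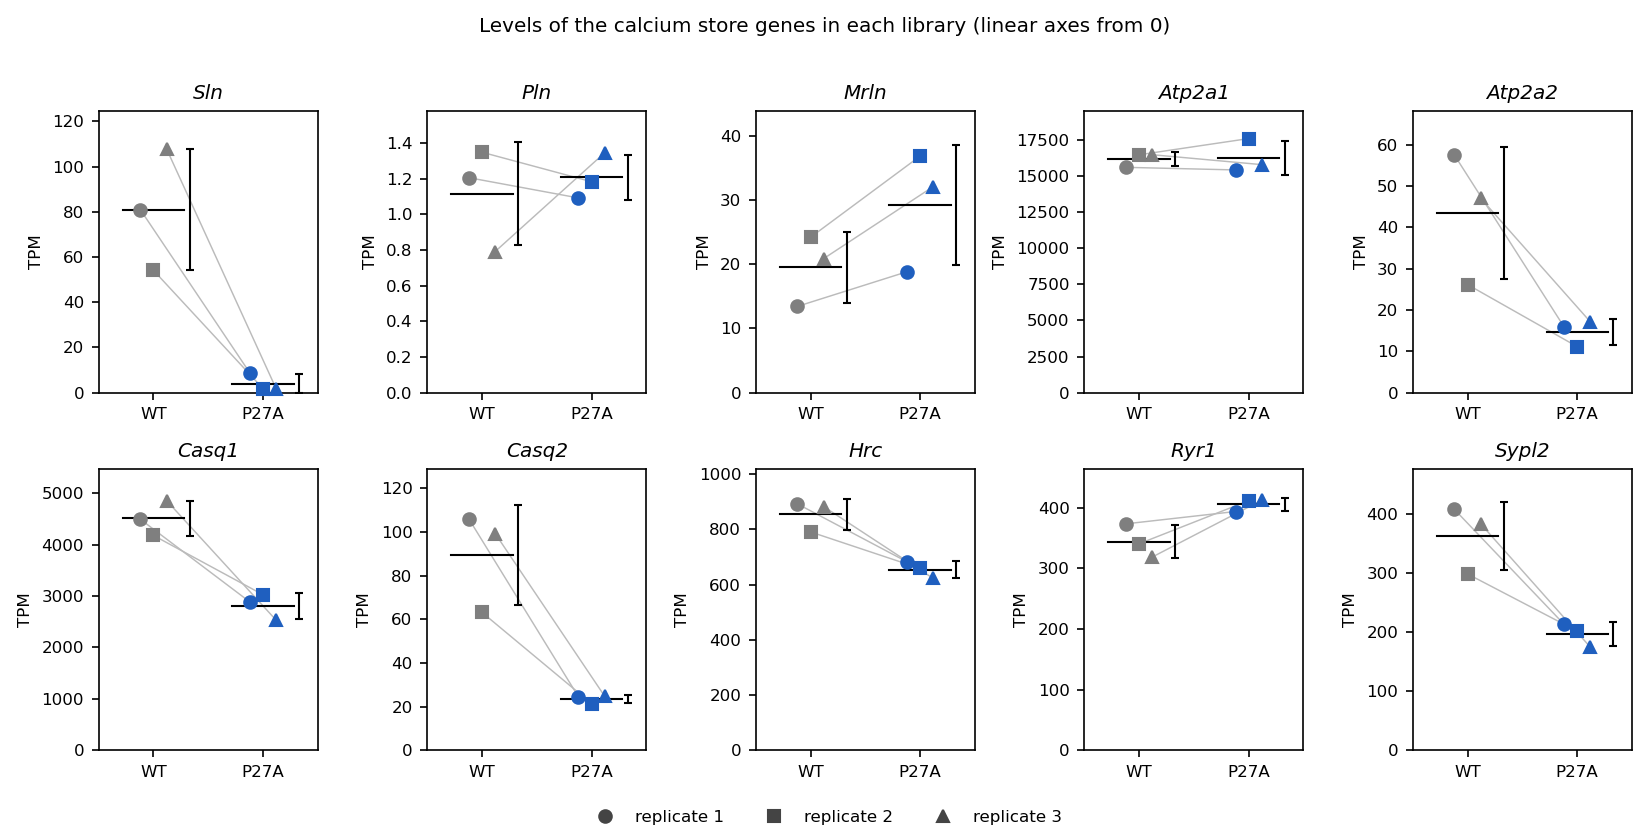
TPM of each of the 10 genes in every library (vertical axes in TPM, linear and starting at 0, a separate axis per gene), with LrpprcWT in grey and LrpprcP27A in blue. Symbols mark the replicate number, grey lines join same-numbered libraries, horizontal bars are means and the error bar at the right of each group is the SD (n = 3, cut off at 0). Sln, Atp2a2, Casq1, Casq2, Hrc and Sypl2 lie lower in every LrpprcP27A library than in any LrpprcWT library, Ryr1 lies higher, and Pln, Mrln and Atp2a1 overlap.

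The 2 pumps differed from each other. Atp2a1, which encodes the fast-fibre pump SERCA1 and was by far the most abundant of the 10 genes, had 15633, 16504 and 16509 TPM with LrpprcWT and 15453, 17630 and 15820 TPM with LrpprcP27A. The groups overlapped, and the means of 16216 ± 504 and 16301 ± 1166 TPM (SD, n = 3 each) were closer than the spread within either group. The log2 difference was 0.01 (standard error 0.10). It was -0.02 after quantile normalization and 0.43 after median-of-ratios scaling, so its direction differed between scalings.

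Atp2a2, which encodes SERCA2, was lower with LrpprcP27A. It had 57.5, 26.1 and 47.1 TPM with LrpprcWT and 15.9, 11.1 and 17.1 TPM with LrpprcP27A. The groups did not overlap, and within each group replicate 2 was the lowest. The means were 43.6 ± 16.0 and 14.7 ± 3.17 TPM (SD, n = 3 each), 2.96-fold lower, with a log2 difference of -1.45 (standard error 0.27). It stayed between -1.78 and -1.22 with any 1 library left out and was -1.05 after median-of-ratios scaling. The gene overlaps Anapc7 on the opposite strand (mean 7.10 TPM), and without strand the reads of both cannot be told apart where they overlap.

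Both calsequestrins were lower, Casq2 by more than Casq1. Casq2, the form of slow fibres and heart, had 106.0, 63.2 and 99.3 TPM with LrpprcWT and 24.5, 21.4 and 24.8 TPM with LrpprcP27A. The LrpprcP27A libraries lay close together and all below the lowest LrpprcWT library, which was replicate 2. The means were 89.5 ± 23.0 and 23.6 ± 1.86 TPM (SD, n = 3 each), 3.80-fold lower, with a log2 difference of -1.85 (standard error 0.19).

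Casq1, the main calsequestrin of fast fibres, had 4491, 4177 and 4852 TPM with LrpprcWT and 2883, 3024 and 2528 TPM with LrpprcP27A. The groups did not overlap, and the gap between them was wider than the spread within each. The means were 4506 ± 338 and 2812 ± 255 TPM (SD, n = 3 each), 1.60-fold lower, with a log2 difference of -0.68 (standard error 0.11). After median-of-ratios scaling the difference was -0.26, beside 0.04 for the median gene.

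Hrc, the histidine-rich luminal protein that binds calcium and SERCA, was lower by about as much as the typical gene. It had 893, 791 and 883 TPM with LrpprcWT and 683, 659 and 623 TPM with LrpprcP27A. The groups did not overlap, and the means of 856 ± 56.0 and 655 ± 30.4 TPM (SD, n = 3 each) were 1.31-fold apart. The log2 difference of -0.38 (standard error 0.10) lay -0.07 from the median of all genes, and it turned to 0.04 after median-of-ratios scaling.

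Sequence upstream of the gene start was examined because 6 of the 10 genes were lower together. RefSeq promoters (GRCm38.p6) were matched for 8 of the 10 genes, all but Sln and Atp2a2, and the 250 bases before the start were searched on both strands. The 2 calsequestrin promoters are printed because these paralogs were both lower but by different amounts, with E-boxes (CANNTG, the core motif of myogenic bHLH factors) in capitals.
Casq1 (chr1:172219896-172220145, minus strand): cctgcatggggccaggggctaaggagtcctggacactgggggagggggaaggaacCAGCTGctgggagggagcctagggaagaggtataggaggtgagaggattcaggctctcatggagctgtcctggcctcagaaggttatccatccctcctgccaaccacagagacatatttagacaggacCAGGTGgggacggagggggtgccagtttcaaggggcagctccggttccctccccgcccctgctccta
Casq2 (chr3:102086165-102086414, plus strand): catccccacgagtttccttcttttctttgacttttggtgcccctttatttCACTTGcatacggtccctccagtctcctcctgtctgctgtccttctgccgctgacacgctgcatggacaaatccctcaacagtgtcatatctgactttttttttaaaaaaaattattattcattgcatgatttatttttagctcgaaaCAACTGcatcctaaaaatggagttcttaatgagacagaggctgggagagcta
Each holds 2 E-boxes. An E-box was present in 7 of the 8 promoters, all but that of Ryr1, against 66.2% of all 32851 promoters searched over the same length. GGAAA, the core bound by NFAT, was present in 3 of 8 (Pln, Casq2 and Sypl2) against 55.6%, and TATAAA in 1 of 8 (Pln) against 12.4%. The MEF2 motif was searched only in a strict form, which was found in none of the 8 and in 0.508% of all promoters. Looser forms of it were not counted. The Casq2 promoter printed above holds a run that fits a looser form, just before the E-box nearest the gene start. An absence of MEF2 motifs is therefore not read from this search. The CArG box was found in none of the 8 and in 1.47% of all promoters. No match of one motif overlapped a match of another in these 8 promoters. Matches are given as letters in a window and not as bound sites.

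At the release site, Ryr1 and Sypl2 lay on opposite sides. Ryr1, the calcium release channel of skeletal muscle and a gene of 106 exons (chr7:28702769-28824604, minus strand), had 373, 341 and 319 TPM with LrpprcWT and 394, 412 and 412 TPM with LrpprcP27A. Every LrpprcP27A library was above every LrpprcWT library, though LrpprcWT replicate 1 was close to the lowest of them. The means were 344 ± 27.6 and 406 ± 10.6 TPM (SD, n = 3 each), a ratio of 1.18, with a log2 difference of 0.24 (standard error 0.10) and of 0.66 after median-of-ratios scaling.

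Sypl2 (mitsugumin 29), a synaptophysin relative of the triad membrane, had 408, 299 and 384 TPM with LrpprcWT and 214, 202 and 175 TPM with LrpprcP27A. The groups did not overlap, and LrpprcWT replicate 2 again had the lowest value of its group. The means were 364 ± 57.4 and 197 ± 19.9 TPM (SD, n = 3 each), 1.85-fold lower, with a log2 difference of -0.87 (standard error 0.14) and of -0.45 after median-of-ratios scaling.

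Over the 10 genes, 6 were lower with LrpprcP27A with no overlap between the groups, against 47.6% of all tested genes, 1 was higher with no overlap (Ryr1), against 3.51%, and 3 overlapped. The same 6 passed the limma threshold as lower, against the 23.3% of all genes given above, and none passed as higher. When replicate number entered the fit as a block, 6 were lower and Mrln was the 1 higher, against 48.4% and 2.69% of all genes. After median-of-ratios scaling 4 were lower (Sln, Atp2a2, Casq2 and Sypl2) and Ryr1 was the 1 higher, against 5.81% and 6.83%. Because the genes were proposed from this contrast, nothing is read from these counts. Their median log2 difference was -0.53, beside -0.32 for all tested genes, and -0.11 beside 0.04 after median-of-ratios scaling. In all 6 genes that were lower, LrpprcWT replicate 2 had the lowest LrpprcWT value, and the same held for 80.8% of all tested genes. This library therefore stood nearest to the LrpprcP27A group for these genes as for most others.

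**Figure D2:**
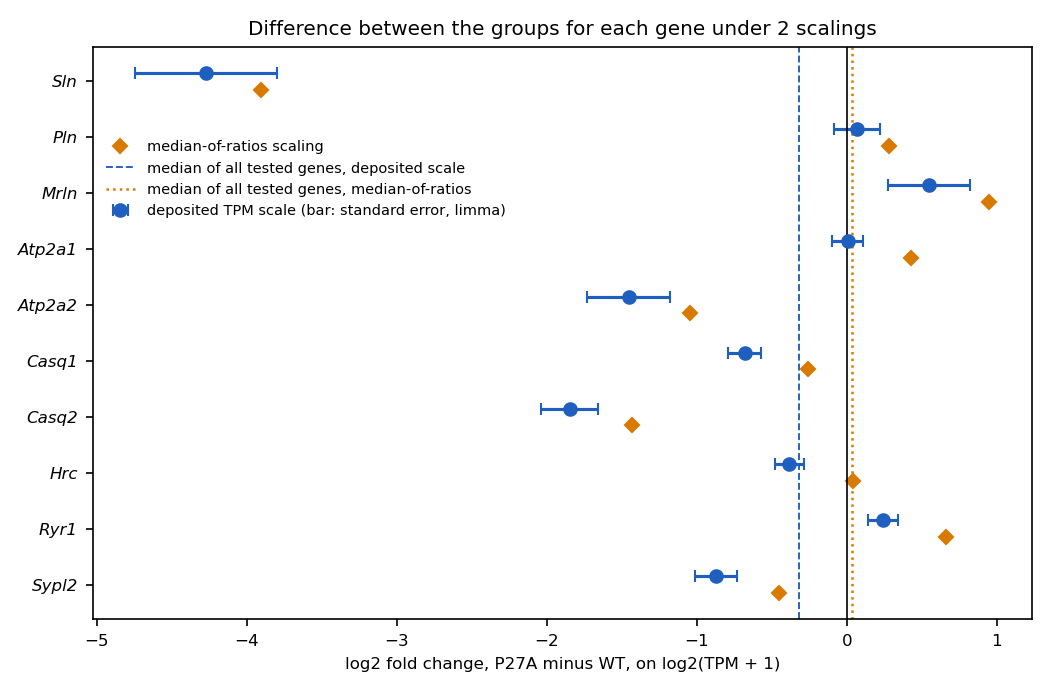
Difference between LrpprcP27A and LrpprcWT for each gene (horizontal axis, log2 fold change on log2(TPM + 1)), on the deposited scale (blue circles, bars are limma standard errors, n = 3 each) and after median-of-ratios scaling (orange diamonds). Vertical lines mark 0 and the median of all tested genes on each scale, -0.32 and 0.04. Sln, Atp2a2, Casq2, Casq1 and Sypl2 lie left of the median line on both scales, and Hrc lies close to it on both, below 0 on the first and above 0 on the second.

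Ratios between these genes within a library, taken on the deposited TPM, do not depend on a single scaling factor per library. Per 1000 SERCA transcripts (Atp2a1 and Atp2a2 summed), Sln had 5.16, 3.27 and 6.51 transcripts with LrpprcWT and 0.559, 0.0965 and 0.102 with LrpprcP27A, while Mrln had 0.855, 1.46 and 1.26 with LrpprcWT and 1.22, 2.09 and 2.02 with LrpprcP27A. Sln made up 84.7, 67.9 and 83.3% of the summed Sln, Pln and Mrln TPM with LrpprcWT, and 30.3, 4.29 and 4.63% with LrpprcP27A. Sln was thus the leading peptide transcript in each LrpprcWT library and Mrln in each LrpprcP27A library. The 3 peptides together had 6.24 ± 1.51 transcripts per 1000 SERCA transcripts with LrpprcWT and 2.10 ± 0.224 with LrpprcP27A (SD, n = 3 each), and the groups did not overlap.

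The minor isoforms of pump and calsequestrin were a smaller part of their pairs with LrpprcP27A. Atp2a2 made up 0.367, 0.158 and 0.284% of SERCA transcripts with LrpprcWT and 0.103, 0.0630 and 0.108% with LrpprcP27A. Casq2 made up 2.31, 1.49 and 2.00% of calsequestrin transcripts with LrpprcWT and 0.843, 0.704 and 0.970% with LrpprcP27A. Neither share overlapped between the groups, while the ratio of Casq2 to Atp2a2 did, at 2.12 ± 0.287 and 1.64 ± 0.255 (SD, n = 3 each). Sln differed by more than Atp2a2, with 1.92 ± 0.459 Sln transcripts per Atp2a2 transcript with LrpprcWT and 0.264 ± 0.244 with LrpprcP27A.

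Store and channel transcripts also stood in other proportions. There were 12.03, 12.3 and 15.2 Casq1 transcripts per Ryr1 transcript with LrpprcWT and 7.32, 7.35 and 6.13 with LrpprcP27A. Sypl2 was at 1.09, 0.878 and 1.205 per Ryr1 transcript with LrpprcWT and at 0.543, 0.491 and 0.424 with LrpprcP27A. Calsequestrins per 1000 SERCA transcripts were 283 ± 23.0 and 174 ± 13.4 (SD, n = 3 each). Each of these 3 ratios was lower in every LrpprcP27A library, whereas Hrc per Casq1 transcript was higher in every one, at 0.190 ± 0.00844 with LrpprcWT and 0.234 ± 0.0145 with LrpprcP27A. Atp2a1, whose groups overlapped, held 70.9 to 80.6% of the summed TPM of the 10 genes in each library.

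**Figure D3:**
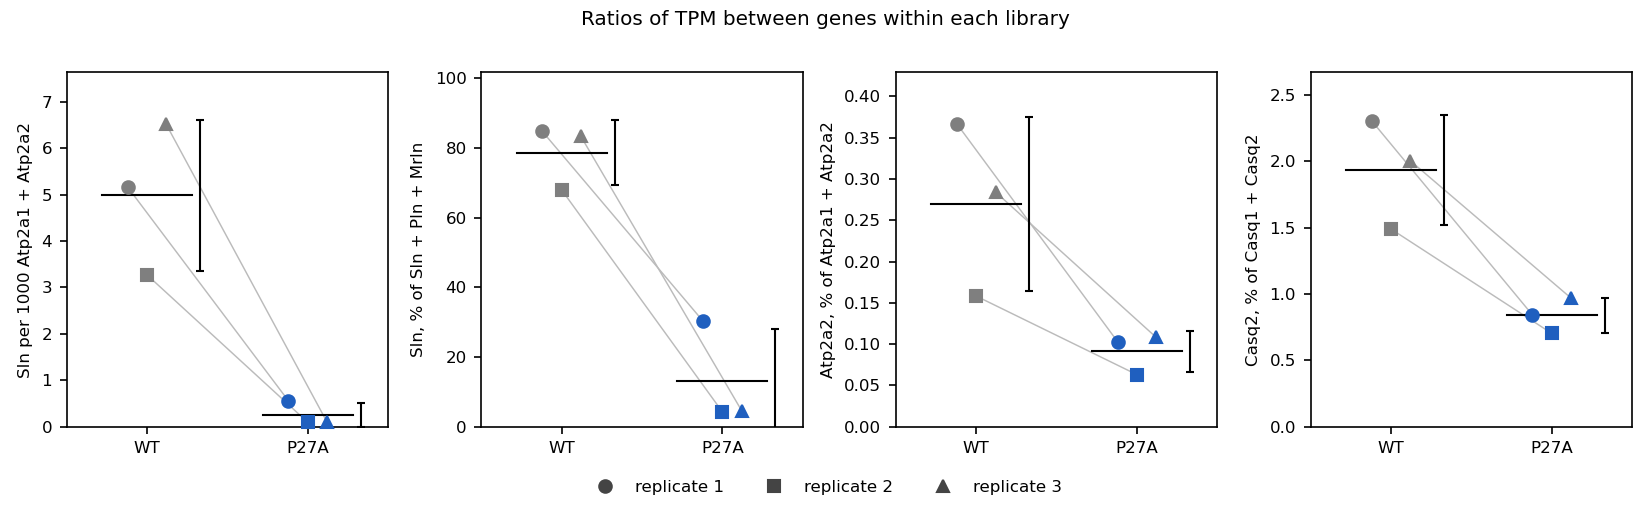
Ratios of TPM within each library, from left to right Sln per 1000 Atp2a1 plus Atp2a2 transcripts, Sln as a percent of Sln, Pln and Mrln, Atp2a2 as a percent of both pumps, and Casq2 as a percent of both calsequestrins (linear axes from 0), with LrpprcWT in grey and LrpprcP27A in blue. Symbols and lines are as in the plot of levels, with means and SD (n = 3, cut off at 0), and in each panel all LrpprcP27A libraries lie below all LrpprcWT libraries.

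Markers of fibre types and of other cells moved in the same comparison, and their part in the results above was not tested. The libraries carried fast skeletal muscle markers throughout, with summed fast fibre TPM of 90802 to 99495 with LrpprcWT and 83742 to 96292 with LrpprcP27A, where 3 of 9 genes were lower and 1 higher (limma), or none lower and 1 higher after median-of-ratios scaling. Tnnt3, the fast troponin T and the most abundant of them over all libraries, did not pass (log2 difference 0.08). None of the 8 general skeletal muscle genes passed limma (1 was lower at an unadjusted p under 0.05), and 1 was higher after median-of-ratios scaling. They include Acta1, the skeletal actin and their most abundant member, with a log2 difference of -0.18. The slow fibre list summed to 113 to 188 TPM with LrpprcWT and 33.2 to 48.7 with LrpprcP27A, and 5 of its 7 tested genes were lower, 4 after median-of-ratios scaling. The 5 included Myl3, a slow light chain and the most abundant of the list (log2 difference -1.38), which did not pass after median-of-ratios scaling. They also included the slow troponins Tnnt1 and Tnni1, with log2 differences of -2.28 and -2.60, which passed on both scales. Myh7, the slow myosin that defines these fibres, was near 0 in 5 libraries, with 14.9, 0.823 and 0.291 TPM with LrpprcWT and 0.746, 0.544 and 0.177 with LrpprcP27A, and did not pass (limma adjusted p = 0.243; in the fit blocked by replicate number, 0.0107).

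The list of embryonic and regenerating fibre genes summed to 2442, 1976 and 2767 TPM in LrpprcWT replicates 1 to 3 and to 1130, 600 and 456 TPM with LrpprcP27A, and 10 of 11 genes were lower on both scales. Actc1, the cardiac actin also made by immature fibres, was the most abundant and had a log2 difference of -1.79, and Myh3, the embryonic myosin, had 29.8, 6.69 and 19.3 TPM against 4.61, 0.858 and 1.01 TPM. As for Sln, LrpprcP27A replicate 1 was the highest of its group and LrpprcWT replicate 2 the lowest of its own. The same held for the slow fibre, macrophage and fibroblast sums, so it was not particular to this list. LrpprcWT replicate 2 was also the lowest of its group for 80.8% of all tested genes. Of the cardiac list Nppb, Myl7 and Nkx2-5 were at 0 in every library, and the list summed to 5.81 to 6.78 TPM with LrpprcWT and 1.495 to 2.57 with LrpprcP27A. Only Tnnt2, the cardiac troponin T that immature skeletal fibres also make, was tested there, and it was lower.

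All 9 tested macrophage genes were lower (3 after median-of-ratios scaling), with sums of 331 to 665 and 111 to 228 TPM and with Lyz2 the most abundant. The remaining gene of the list, Cd163, was under the filter and is named because it lay the other way, with 0.315, 0.581 and 0.480 TPM with LrpprcWT and 1.08, 0.821 and 1.67 TPM with LrpprcP27A. Of the fibroblast genes 7 of 8 were lower (5 after median-of-ratios scaling), with sums of 884 to 1483 and 246 to 521 TPM and with Col3a1 the most abundant. Of the smooth muscle and pericyte genes, led by Rgs5, 1 of 7 was lower (4 with the replicate block and none after median-of-ratios scaling), with sums of 304 to 425 and 235 to 340 TPM. Many of these calls did not pass the adjusted threshold with 1 library left out. Without LrpprcWT replicate 3 this held for all tested genes too, where 2705 lower genes became 15. Without LrpprcWT replicate 3, 1 slow and 1 embryonic gene were lower, and no fast fibre, cardiac, macrophage, fibroblast or smooth muscle gene (3, 1, 8, 7 and 2 at an unadjusted p under 0.05 in limma). Without LrpprcWT replicate 1, 3 slow, 10 embryonic, 2 macrophage and 3 fibroblast genes were lower. Without LrpprcP27A replicate 2, 3 macrophage and 4 fibroblast genes were lower, and the same numbers without LrpprcP27A replicate 3.

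Other genes of calcium handling were tested in the same fit. They were listed by known role, but with earlier results of these data known. Of 79 listed genes 78 were in the table and 71 were tested, of which 24 were lower and none higher (limma, adjusted p under 0.05), beside 23.3% and 1.34% of all genes. At an unadjusted p under 0.05, 36 were lower and none higher. Their median log2 difference of -0.31 was close to the -0.32 of all genes. After median-of-ratios scaling 5 were lower (Rcn1, Rcn3, Selenon, Orai2 and Slc8b1) and 6 higher (among them Slc8a3, Ppp3cb and Camk2a). Without LrpprcWT replicate 3 none of the 71 passed, with 32 lower at an unadjusted p under 0.05. Without LrpprcP27A replicate 2, 1 passed, without LrpprcWT replicate 1 or LrpprcP27A replicate 3, 2 passed, and without LrpprcP27A replicate 1, 14 passed, all as lower. Without LrpprcWT replicate 2, 42 were lower and 2 higher.

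Genes for luminal calcium binding and folding showed the most calls, with 10 of 13 lower and a median log2 difference of -0.78. The share of all genes was 23.3%. After median-of-ratios scaling 3 of the 13 were lower, with a median of -0.36. Without LrpprcWT replicate 3 none passed, with 10 lower at an unadjusted p under 0.05. Without LrpprcWT replicate 1 or LrpprcP27A replicate 2, 1 was lower, without LrpprcP27A replicate 3, 2, and without LrpprcP27A replicate 1, 6. Without LrpprcWT replicate 2 all 13 were lower. Rcn3, a reticulocalbin of the secretory pathway, had 28.7 ± 4.90 TPM with LrpprcWT and 10.3 ± 2.98 with LrpprcP27A (SD, n = 3 each; log2 difference -1.41 ± 0.21, standard error, limma adjusted p = 0.0116). Selenon, the selenoprotein of the reticulum that is mutated in a congenital myopathy, was at 9.97 ± 2.96 and 4.11 ± 1.01 TPM (log2 difference -1.08 ± 0.23, standard error, limma adjusted p = 0.0221). Calr, Canx, Hsp90b1, Pdia3, Pdia4, Calu, Rcn1 and Rcn2 were also lower. Most of these are general chaperones and calcium binders of the endoplasmic reticulum of all cells, and the macrophage and fibroblast sums above were lower in the same libraries, whose part in these calls was not tested. Srl (sarcalumenin), the abundant muscle-specific member of the list, was at 757 and 676 TPM and did not pass.

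Of the 20 tested genes of the triad and of excitation-contraction coupling, 5 were lower (8 with the replicate block), with a median of -0.20, beside the 23.3% and 48.4% of all genes given above. Cacng1 and Cacnb1, subunits of the voltage sensor, had log2 differences of -0.64 ± 0.13 and -0.58 ± 0.13 (± standard error, limma adjusted p = 0.0191 and 0.0247), and Asph, Fkbp1a and S100a1 were the others. Cacna1s, the pore subunit of the same sensor, was at 327 and 313 TPM, and Jph1 and Jph2, which hold the triad membranes together, were at 136 and 152 TPM and at 390 and 421 TPM; none of these passed. None of the 20 triad genes was lower after median-of-ratios scaling. Of the further SERCA partners, Atp2a3 and Arln (another-regulin, listed under an older symbol) were tested and did not pass, and Strit1, the peptide DWORF that relieves SERCA inhibition, was under the filter at 0.944, 0 and 0.225 TPM with LrpprcWT and listed at 0 with LrpprcP27A.

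In the remaining lists the calls were fewer, and they stand beside the 23.3% of all genes given above (48.4% with the replicate block). Of the store-operated entry genes and IP3 receptors 2 of 9 were lower, the plasma membrane channels Orai2 (log2 difference -0.73, adjusted p = 0.0207 from limma) and Orai1 (-0.50, adjusted p = 0.0351). Of the mitochondrial calcium transport genes (plotted under uptake) 4 of 8 were lower. Among them were the calcium exporter Slc8b1 (-0.70, adjusted p = 0.0184 from limma) and the uniporter pore Mcu (-0.65, adjusted p = 0.0262). Of the plasma membrane pumps, exchangers and buffers 1 of 6 was lower, the pump Atp2b4 (-0.72, adjusted p = 0.0482 from limma), and parvalbumin (Pvalb), the cytosolic buffer of fast fibres, was at 14698 and 12858 TPM and did not pass. Of the calcineurin, NFAT and CaMKII genes 2 of 13 were lower (5 with the replicate block), the kinases Camk2d (-0.57, adjusted p = 0.0327 from limma) and Camk2b (-0.46, adjusted p = 0.0271). After median-of-ratios scaling only Orai2 and Slc8b1 of the genes named in these lists stayed lower. On that scale none of the calcineurin, NFAT and CaMKII genes was lower and 3 were higher.

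**Figure D4:**
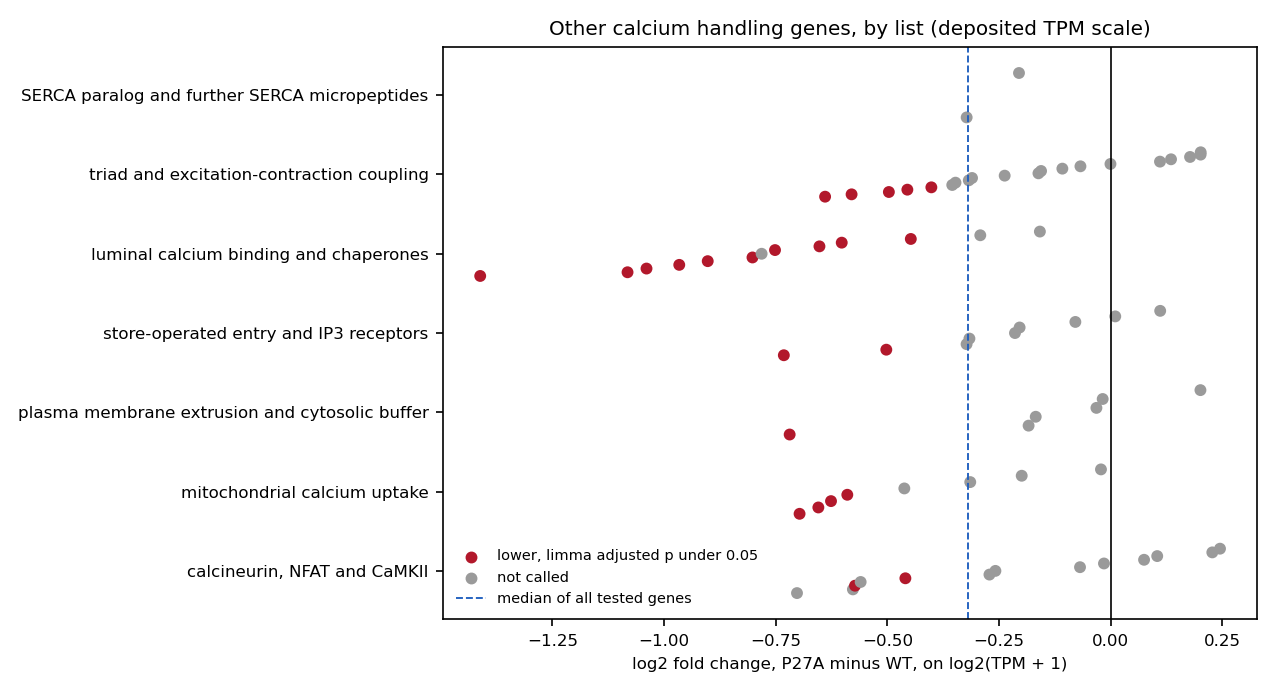
Log2 fold change of LrpprcP27A against LrpprcWT on log2(TPM + 1) (horizontal axis) for the 71 tested calcium handling genes outside the 10, by list, with genes lower at a limma adjusted p under 0.05 in red and the others in grey, n = 3 each. The dashed line is the median of all tested genes, -0.32. The luminal list reaches furthest to the left, with 10 of 13 genes in red, and no gene passed as higher on this scale.

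The genes whose log2(TPM + 1) followed Sln most closely over the 6 libraries were Wnt11 and Mxd1 (Pearson r = 0.999 each), Cd48 and Adamts15 (0.997 each) and Gimap3 (0.996), given as a description over libraries that share a group difference. All 5 were of low level, from 0.435 TPM for Gimap3 to 7.40 TPM for Wnt11. Within the 10 genes, r with Sln was 0.971 for Hrc, 0.961 for Sypl2, 0.956 for Casq2, 0.954 for Casq1 and 0.906 for Atp2a2, and it was negative for Atp2a1 (-0.20), Pln (-0.43), Mrln (-0.75) and Ryr1 (-0.89). By r, Hrc stood at rank 255 among the tested genes, Sypl2 at 461, Casq2 at 545, Casq1 at 607 and Atp2a2 at 2139. Many other genes thus followed Sln as closely.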

How the data were processed

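The series holds RNA-seq of 6 mouse TA muscles, 3 per plasmid. Per the study's methods, RNA was extracted with Trizol, libraries were made with the TruSeq RNA v2 kit and sequenced in pairs on a NovaSeq. The authors used CLC Genomics Workbench to align the reads to GRCm39 and deposited the levels as TPM. The gene annotation is not given in the sources used here. The labels and the paper give different RNA inputs. TPM keeps no read depth, so no counting error is given.

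Log2(TPM + 1) of the 11611 genes averaging 1 TPM or more was compared with limma 3.58.1 in R 4.3.3 (empirical Bayes with trend, no block), with Benjamini-Hochberg adjustment over all tested genes. The fit was tested on simulated data. The 10 genes and the gene lists were chosen with earlier results of these data known. Genes outside the 10 were named as the 2 lowest and 2 highest called log2 fold changes of each calcium list, the most abundant gene of each marker list with those a result turns on, and the 5 genes most correlated with Sln. Values of Srl, Cacna1s, Jph1, Jph2 and Pvalb were added after they were seen. Some list genes are not reported here by name. Samples were grouped by the labels. The replicate numbers were taken to pair the muscles because the methods describe contralateral legs and deviations from the group means correlated by 0.363, 0.528 and 0.356 within the 3 numbers. P-values measure the spread between these muscles. Those of the fit without the block ignore this pairing, so differences between mice are part of that spread. Alternatives were a pseudocount of 0.1, no filter or a stricter one (average of 5 TPM), a fit without trend, the Kruskal-Wallis test of the study's methods, 3 other scalings, the replicate block, and each library left out.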

Additional observations from a re-analysis of the deposited data

How the results depend on the processing

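The count of lower genes, 2705, depended strongly on the processing. It was 1560 with a mean TPM of at least 5, 42 with no filter (6671 at an unadjusted p under 0.05), 675 with median-of-ratios scaling, 658 after rescaling without mitochondrial and ribosomal RNA genes, 520 with quantile normalization and 15 to 6913 with 1 library left out. The count of higher genes, 156, was 9 with no filter (429 unadjusted), 793 with median-of-ratios scaling, 493 with quantile normalization and 3 to 304 with 1 library left out. With the replicate block 5619 genes were lower and 312 higher, and with the block and median-of-ratios scaling together 1636 and 1995. The Kruskal-Wallis test called 0 genes in either direction and 0 in the calcium lists (5530 lower and 407 higher unadjusted, 36 and 2 in the lists), a count fixed by the design, since with 3 against 3 that test cannot reach the threshold after adjustment.

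Of the calcium handling lists, 24 lower genes became 0 with no filter (35 unadjusted), 5 with median-of-ratios scaling, 5 after rescaling, 4 with quantile normalization, 13 with the block and median-of-ratios scaling, and 0 to 42 with 1 library left out, and the block alone gave 34. Higher genes went from 0 to 6 with median-of-ratios scaling, 2 with quantile normalization, 17 with the block and median-of-ratios scaling, and 0 to 2 with 1 library left out. Without LrpprcWT replicate 3 none of the 24 passed. The cause was not tested.

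Of the values of the 10 genes under these alternatives, 107 moved by less than the spread between replicates and 20 by more. Hrc, which passed the limma threshold, reversed, to 0.039 with median-of-ratios scaling, with and without the replicate block. Atp2a1 and Pln, which did not pass and lay near 0, also changed sign under some alternatives and are counted among the 107. Atp2a1 was at -0.024 with quantile normalization, for example, and Pln at -0.046 without LrpprcWT replicate 3. The number of reads is unknown, which limits the low values of Sln with LrpprcP27A and of Pln most.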
